A study of Mus musculus with 6 samples.

Results

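A bidirectional promoter is the stretch of DNA between 2 genes that are transcribed away from each other from neighbouring start sites. Here the members were chosen from the gene annotation alone: protein-coding genes on opposite strands of chromosomes 1 to 19, the minus-strand gene on the left, with start sites at most 1000 bp apart. No measured value entered the choice. There were 789 such pairs, made of 1562 of the 21418 protein-coding genes of these chromosomes. The distance between start sites was 1 to 987 bp with a median of 141 bp, and 622 pairs (78.8%) lay within 300 bp. Because 32 pairs shared a gene with another pair, the pair windows merged into 773 separate stretches.

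ATAC-seq, in which the Tn5 transposase cuts and tags accessible DNA, had been performed on 3 mouse cell lines in 2 biological replicates each. Beta-TC3 cells come from an insulinoma and express Pax6 at a high level, MV+ cells were derived from lens epithelia of a wild-type C57BL6 mouse kept in culture and express Pax6, and RAG cells come from a renal adenocarcinoma of the BALB/c strain and do not. All were grown in the same medium, the labels name no treatment, and each tissue is represented by a single line. Nuclei of MV+ cells were released with 0.2% NP40 and those of the other lines with 0.1%, so detergent and cell line cannot be told apart. The authors called peaks once per line on both replicates together, so each line counts as 1 sample, values carry no replicate error and groups could not be tested against each other.

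The calls held 28024 peaks from 100254099 fragments in Beta-TC3 cells, 9821 peaks from 130955836 in MV+ cells and 14022 peaks from 102223606 in RAG cells. The line with the most fragments thus had the fewest peaks. Of 8 promoters fixed as markers of each tissue, 3 beta-cell markers (Mafa, Neurod1, Nkx6-1) had a peak in Beta-TC3 cells, 2 lens markers (Prox1, Maf) in MV+ cells and 2 kidney markers (Pax2, Cdh16) in RAG cells. Defining markers of each tissue were without one in the matching line, among them Ins1, Ins2 and Pdx1 in Beta-TC3 cells and Cryaa, Foxe3 and Pax6 in MV+ cells. The lists did not follow the lines: lens markers also had 3 peaks in Beta-TC3 cells (Prox1, Pax6, Maf) and 2 in RAG cells (Maf, Cryab), and beta-cell markers 2 in MV+ (Mafa, Nkx6-1) and 1 in RAG cells (Mafa).

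Divergent gene pairs are common in mammalian genomes, and many of them join housekeeping genes of DNA repair, replication, the mitochondrion and RNA processing. Their shared promoters are usually rich in CpG dinucleotides and poor in TATA boxes, and a single nucleosome-depleted stretch can serve both start sites. Factors whose sites are often found there include ETS proteins, NRF1, YY1, SP proteins and NF-Y, the factor that binds the CCAAT box.

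The sequences of 6 stretches are shown because the results below return to them. Elp4/Immp1l is the divergent pair beside Pax6, the locus the study was built around. Aasdhppt/Kbtbd3 is the pair whose peak ranked high in every line. Of the pairs with a peak in Beta-TC3 cells alone, Zbtb6/Rabgap1 had the strongest by fold enrichment over local background, tied with 2 others. By the same measure 1700088E04Rik/Polr2f had the strongest of those with a peak in RAG cells alone. Wrap53/Trp53 and Tsc2/Nthl1 are well-known pairs with no peak in any line. Each is the mm9 (NCBIM37) sequence strictly between the start sites, read 5′ to 3′ on the plus strand, and overlaps no annotated exon. Capitals mark matches, on either strand, to the motifs spelled out further on, ATTGG being CCAAT on the other strand.
Elp4/Immp1l: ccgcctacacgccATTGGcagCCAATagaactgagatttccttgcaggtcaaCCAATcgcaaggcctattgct
Aasdhppt/Kbtbd3: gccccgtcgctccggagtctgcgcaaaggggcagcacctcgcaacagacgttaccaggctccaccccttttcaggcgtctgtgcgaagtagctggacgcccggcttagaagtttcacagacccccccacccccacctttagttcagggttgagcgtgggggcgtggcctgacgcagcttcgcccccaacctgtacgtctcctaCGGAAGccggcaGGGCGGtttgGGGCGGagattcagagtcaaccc
Zbtb6/Rabgap1: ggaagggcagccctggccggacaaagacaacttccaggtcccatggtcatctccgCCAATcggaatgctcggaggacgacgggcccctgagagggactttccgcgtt
1700088E04Rik/Polr2f: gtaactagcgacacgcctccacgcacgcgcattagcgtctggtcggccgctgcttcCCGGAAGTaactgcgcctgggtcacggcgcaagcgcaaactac
Wrap53/Trp53: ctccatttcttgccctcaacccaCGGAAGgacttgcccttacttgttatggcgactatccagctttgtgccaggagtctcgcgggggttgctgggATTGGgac
Tsc2/Nthl1: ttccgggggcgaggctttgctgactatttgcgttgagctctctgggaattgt
The Elp4/Immp1l stretch (chr2:105744722-105744794) held 3 CCAAT cores in 73 bp, and that of Aasdhppt/Kbtbd3 (chr9:4309495-4309742) held 2 SP cores and 1 ETS core in 248 bp. A single CCAAT core lay in the stretch of Zbtb6/Rabgap1 (chr2:37298692-37298798), and an ETS motif of 8 letters in that of 1700088E04Rik/Polr2f (chr15:78971682-78971780). The stretch of Wrap53/Trp53 (chr11:69393758-69393860) held 1 ETS core and 1 CCAAT core, and that of Tsc2/Nthl1 (chr17:24769575-24769626) held none of the motifs searched.

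A pair was counted as having a peak when a peak overlapped, by at least 1 bp, the stretch between its start sites plus 200 bp on each side. In Beta-TC3 cells this held for 670 of 789 pairs (84.9%, 95% Wilson interval 82.3 to 87.2%), in MV+ cells for 333 (42.2%, 38.8 to 45.7%) and in RAG cells for 609 (77.2%, 74.1 to 80.0%). Over all coding start sites with 200 bp on each side, a peak was present at 41.5% in Beta-TC3, 18.8% in MV+ and 32.5% in RAG cells. Among the 19856 coding genes in no pair the shares were 38.3% (37.6 to 38.9%), 17.0% (16.5 to 17.6%) and 29.1% (28.5 to 29.8%). Pairs therefore had a peak 2.22 times as often as other coding genes in Beta-TC3, 2.48 times in MV+ and 2.65 times in RAG cells, and the intervals did not overlap in any line. The intervals cover the sampling of promoters only, not variation between cultures.

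The window of a pair is longer than that of a single start site, so each start was also counted alone. With 200 bp on each side of every start site, 83.2% of the 1562 paired genes had a peak in Beta-TC3, 41.0% in MV+ and 74.8% in RAG cells. The gap to other genes thus remained with equal windows.

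Divergent neighbours further apart did not share this level. There were 388 divergent coding pairs with start sites more than 1000 and up to 5000 bp apart and no gene in a closer pair. Of their 771 genes, 41.9% had a peak in Beta-TC3, 13.6% in MV+ and 31.5% in RAG cells, against 37.2%, 16.6% and 28.3% of the 18634 coding genes with no divergent partner. The 457 coding genes divergent from a noncoding gene within the same 1000 bp lay closer to the coding pairs. Counted over the stretch between both starts plus 200 bp, 73.7% (69.5 to 77.6%) of them had a peak in Beta-TC3 and 59.1% (54.5 to 63.5%) in RAG cells, both below the coding pairs. In MV+ cells the 2 classes were indistinguishable, with 40.3% (35.9 to 44.8%) for genes with a noncoding partner.

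**Figure D1:**
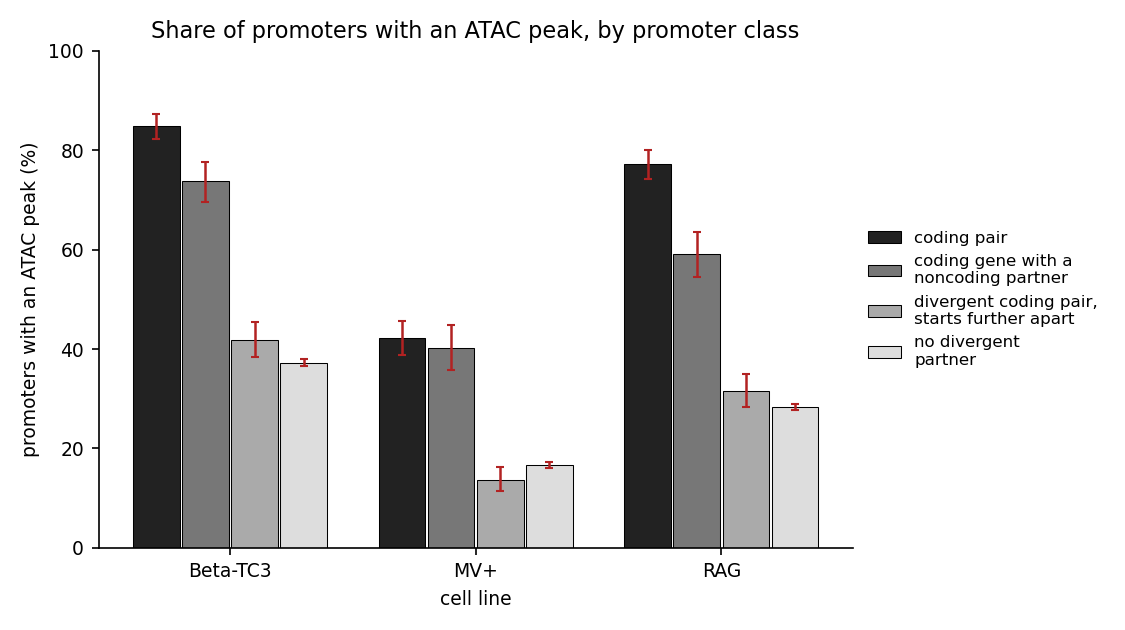
Share of promoters with an ATAC peak (%) in each cell line for coding pairs (n = 789), coding genes with a noncoding divergent partner (n = 457), genes of divergent coding pairs with starts more than 1000 and up to 5000 bp apart (n = 771) and coding genes with no divergent partner (n = 18634). Bars give the share and whiskers the 95% Wilson interval. Close coding pairs stand highest in Beta-TC3 (84.9%) and RAG cells (77.2%), whereas in MV+ cells they and genes with a noncoding partner have overlapping intervals.

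Where a peak was called, its strength differed little between the classes. Promoters without a peak were left out, so medians cover 670 of 789 pairs but 7595 of 19856 other coding genes in Beta-TC3 cells. Differences in strength therefore cannot be set against those in presence. The deposited pileup is the number of fragments over the peak summit and is not scaled for depth, so it was compared only within a line, with the strongest peak taken for each promoter. Median pileup at pairs was 90.0 fragments (87 to 98) in Beta-TC3 cells, where other coding genes had 81 (79 to 82). In RAG cells it was 63 (59 to 67) against 57 (57 to 58), and in MV+ cells 68 (64 to 72) against 66 (65 to 67). The ratio of medians was thus 1.11, 1.11 and 1.03 in Beta-TC3, RAG and MV+ cells, and in MV+ cells the intervals overlapped. Coding genes with a noncoding divergent partner had a median pileup like that of pairs, at 91 (85 to 104) in Beta-TC3 and 63 (60 to 68) in RAG cells. Pairs held 659 of 27172 Beta-TC3 peaks on chromosomes 1 to 19 (2.43%), 328 of 9418 MV+ peaks (3.48%) and 598 of 13394 RAG peaks (4.46%). Among the 1000 peaks with the highest pileup they held more, 6.10%, 4.70% and 6.90%. The same share was not counted for other coding promoters, so the rise is not shown to be particular to pairs.

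The 5 pairs with the highest pileup in Beta-TC3 cells were Casc1/Lyrm5, Rpa3/Gm16039, Etfdh/4930579G24Rik, Pdcd10/Serpini1 and Plag1/Chchd7, at 623, 465, 458, 446 and 395 fragments. Rpa3 is a subunit of the single-strand binding protein of replication, Etfdh passes electrons from fatty acid oxidation to the respiratory chain, and Plag1 is a zinc finger transcription factor. In MV+ cells the order was Aasdhppt/Kbtbd3 (346), Gm10373/Ttc35 (256), Hjurp/Trpm8 (253), Pdcd10/Serpini1 (244) and Tmtc3/Cep290 (228). In RAG cells it was Hjurp/Trpm8 (392), Gm10373/Ttc35 (251), Heatr5b/Ccdc75 (242), A930002H24Rik/Fer (224) and Polr3g/Mblac2 (219). All of these had a peak in every line. Hjurp, the chaperone that loads the centromeric histone, shares its promoter with Trpm8, the cold-sensing channel known as a gene of sensory neurons. Among the 5 strongest in 2 lines, the peak of the pair was strong in all. It stood at the 98.8th, 98.4th and 99.7th percentiles of other coding promoters with a peak in Beta-TC3, MV+ and RAG cells. Aasdhppt, which activates carrier proteins by adding phosphopantetheine, had with Kbtbd3 a pileup above that of 98.7% or more of the other coding promoters with a peak, in every line.

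Pileup in Beta-TC3 cells differed between chromosomes, at pairs and other genes alike. Chromosome 6 was highest, with a median of 185.5 over the 26 of its 28 pairs with a peak and 150 over other coding genes. Chromosome 1 followed with 155 and 118, and chromosome 16 with 129.5 and 98, while all chromosomes but 6 together had 89.5 and 78. Casc1/Lyrm5 and Rpa3/Gm16039 both lie on chromosome 6, and their place in the Beta-TC3 order has to be read with this. The share of pairs with a Beta-TC3 peak ran from 68.2% on chromosome 9 and 68.7% on chromosome 11 to 95.8% on chromosome 1 and 97.1% on chromosome 12. Without chromosome 6 the share over all pairs was 84.6%.

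Among 23 well-known divergent pairs that were looked up by name, 13 met the rule in this annotation. Of these, 6 had a peak in every line: Elp4/Immp1l, Atm/Npat, Mcm4/Prkdc, Ndufaf2/Ercc8, Toe1/Mutyh and Pdcd10/Serpini1. Elp4 is a subunit of the Elongator complex, and Immp1l a subunit of a mitochondrial inner membrane peptidase. Their start sites lie 74 bp apart, and the pileup was 161 in Beta-TC3, 105 in MV+ and 112 in RAG cells. The peak exceeded 86.1%, 80.3% and 90.9% of the other coding promoters with a peak in these lines, so the pair beside Pax6 was strong whether or not a line expressed Pax6.

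Pairs with DNA repair genes were among those with a peak in every line. Atm, the kinase that signals double-strand breaks, and Npat, which promotes histone gene transcription, gave 125, 112 and 126 fragments in Beta-TC3, MV+ and RAG cells. Mcm4, part of the replicative helicase, and Prkdc, the kinase of end joining, gave 257, 70 and 112. Ndufaf2, a complex I assembly factor, and Ercc8, of transcription-coupled repair, gave 110, 70 and 134, and Toe1, a deadenylase, with Mutyh, a glycosylase of base excision repair, 108, 67 and 41. Brca1, central to homologous recombination, is paired with Nbr1, an autophagy receptor. Their peak had 46 fragments in Beta-TC3 cells, fewer than the 4 pairs above, and 70 in RAG cells, and there was none in MV+ cells.

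Pdcd10, a gene of vascular integrity, and Serpini1, which encodes neuroserpin, lie 691 bp apart and gave 446, 244 and 189 fragments, the highest of the 13 in each line. Gart/Son, Mrps12/Sars2 and Hadha/Hadhb showed the same presence as Brca1/Nbr1. Their pileup was 102, 65 and 51 in Beta-TC3 and 45, 36 and 30 in RAG cells, the last values lying close to the lowest pileup of any RAG peak (25). Hadha and Hadhb encode both subunits of the mitochondrial trifunctional protein, and Gart catalyses steps of purine synthesis. Col4a4/Col4a3, which encode basement membrane collagens of the kidney glomerulus, had a peak of 45 fragments in Beta-TC3 cells and none in the renal line RAG.

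Wrap53/Trp53 and Tsc2/Nthl1 had no peak in any line. For Wrap53/Trp53, the pair of the tumour suppressor p53, the nearest peak lay 559 bp past the edge of the window in Beta-TC3 and 582 bp in RAG cells. For Tsc2, a brake on mTORC1, and Nthl1, another glycosylase of base excision repair, it lay 36550 and 36608 bp away. A start site here is the outermost annotated one of the gene, so a peak at a start used further inside is not counted.

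**Figure D2:**
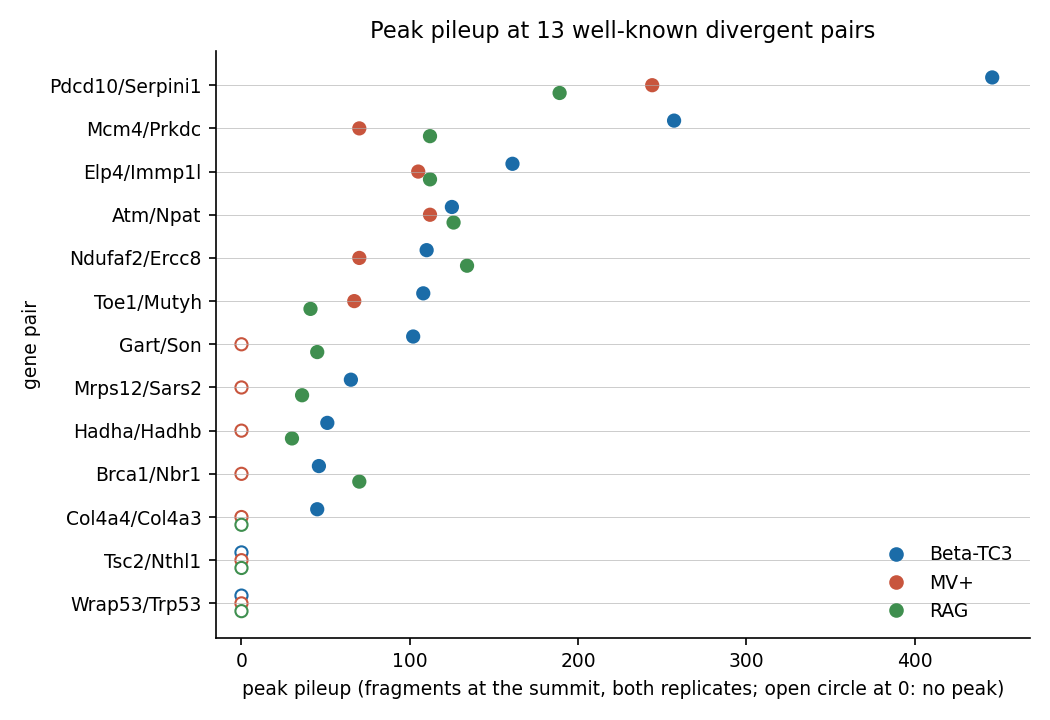
Peak pileup (fragments at the summit, both replicates pooled, not scaled for depth) at 13 well-known divergent pairs in the 3 cell lines, with an open circle at 0 where no peak was called. Filled circles for all 3 lines are seen at 6 pairs, Pdcd10/Serpini1 reaches 446 in Beta-TC3 cells, and the last 2 pairs have open circles only.

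Over the 3 lines together, 703 pairs (89.1%, 86.7 to 91.1%) had a peak in at least 1 line, against 42.0% of other coding genes. A peak in all 3 lines was found at 323 pairs (40.9%, 37.6 to 44.4%). Over all coding start sites this share was 15.5%, and over those in no pair 13.6%. The next most frequent pattern was a peak in Beta-TC3 and RAG without MV+, at 254 pairs (32.2%, 29.0 to 35.5%), against 12.7% of other genes. No peak was called at 86 pairs (10.9%), and a peak in Beta-TC3 alone also at 86. RAG alone accounted for 30 pairs, Beta-TC3 with MV+ for 7, MV+ with RAG for 2 and MV+ alone for 1.

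MV+ peaks at pairs were nearly a subset of those of the other lines. Of the 333 pairs with an MV+ peak, 330 (99.1%, 97.4 to 99.7%) had one in Beta-TC3 and 325 (97.6%, 95.3 to 98.8%) in RAG cells. For other coding genes with an MV+ peak these shares were lower, 91.4% (90.4 to 92.3%) and 82.9% (81.6 to 84.1%). Of the pairs with a Beta-TC3 peak, 86.1% had one in RAG cells, against 68.8% of other genes. The number of peaks differs between the lines, and when each call was cut to its 9821 best peaks by q-value, Beta-TC3 had a peak at 57.8% of pairs, below the 68.4% of RAG. The order of these 2 lines thus depends on how many peaks are kept.

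Pairs with a peak in fewer lines also had weaker peaks. In Beta-TC3 cells the median pileup was 52.0 where no other line had a peak, 69.0 where RAG cells also had one and 135 where all lines did. In RAG cells it was 40.5 for RAG alone, 52 with Beta-TC3 and 80 in all lines. These are the 22.6th, 39.6th and 79.5th percentiles of other Beta-TC3 promoters with a peak, and the 17.8th, 41.2nd and 75.9th of those in RAG cells. A call that misses a pair does not show that the pair was closed in that line.

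The strongest peaks in Beta-TC3 cells alone had a fold enrichment over local background of 6.88 at Zbtb6/Rabgap1, Zbtb26/Rabgap1 and Slc7a6os/Prmt7, 6.62 at Tmem209/1700025E21Rik and 6.49 at C630004L07Rik/Arhgef19. Zbtb6 and Zbtb26, both zinc finger factors, share the start of Rabgap1 and 1 peak. In RAG cells alone, 1700088E04Rik/Polr2f (6.66) led, and Rnf166/Ctu2 (4.56), Timm23/Parg (4.42) and Il17rb/Chdh (3.82) were among the 5 strongest. Chdh, choline dehydrogenase, is known for its activity in kidney and liver. Polr2f, a subunit shared by the nuclear RNA polymerases, is by contrast needed in every cell.

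The only pair with a peak in MV+ cells alone was Leprel4/Fkbp10, with start sites 878 bp apart, a pileup of 40 and a fold enrichment of 2.70. Both genes belong to the machinery that modifies and folds collagen in the endoplasmic reticulum. The pairs that Beta-TC3 and MV+ cells shared without RAG included Atp7b/Alg11 (203 and 125 fragments), 1700025K23Rik/Tube1 (114 and 49), Srsf11/Lrrc40 (93 and 46) and Hist1h2ak/Hist1h2bn (46 and 37). Atp7b is a copper transporter. Among the pairs of Beta-TC3 and RAG, ranked by the lower of their fold enrichments, Tcte3/2210404J11Rik, Nop16/Higd2a, Idh1/Pikfyve, Trmt5/Slc38a6 and Tnfaip1/Ift20 were strongest. Their pileup was 92 to 188 fragments in Beta-TC3 and 78 to 116 in RAG cells. Pileup in MV+ cells is listed only where a peak was called, so the signal of the lines cannot be compared at these pairs.

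One peak usually spanned both start sites. It did so at 596 of the 670 pairs with a Beta-TC3 peak (89.0%, 86.4 to 91.1%), at 508 of 609 in RAG (83.4%, 80.3 to 86.2%) and at 229 of 333 in MV+ cells (68.8%, 63.6 to 73.5%). The minus-strand gene alone was covered at 34, 41 and 42 pairs in Beta-TC3, RAG and MV+ cells, and the plus-strand gene alone at 28, 42 and 42, so neither side was favoured. More than 1 peak lay in the window of 3, 4 and 1 pairs. At other coding genes with a peak, the strongest peak covered the single start site at 92.7% in Beta-TC3, 91.6% in RAG and 85.6% in MV+ cells. The summit lay between the start sites at 53.9% of pairs with a peak in Beta-TC3, 51.2% in RAG and 58.3% in MV+ cells. Its median distance from the midpoint was 65, 72 and 67 bp.

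Peaks at pairs were somewhat longer than those at other coding genes in Beta-TC3 and RAG cells. The median of the longest peak was 809.5 bp (788 to 837) against 742 (734 to 750) in Beta-TC3 cells, and 644 bp (614 to 666) in RAG cells, 79 bp more than at other genes. In MV+ cells the intervals overlapped, with 493 bp (453 to 513) against 470.0 (460 to 481). Coding genes with a noncoding divergent partner had peaks of like length, at 815 bp (774 to 839) in Beta-TC3 and 631 bp (573 to 672) in RAG cells. Greater length was thus not particular to coding pairs. Peak length rose with distance in Beta-TC3 cells from 768.5 bp (724 to 810) at pairs 1 to 100 bp apart to 952.5 bp (856 to 1012) at pairs over 500 bp apart, and in RAG cells from 570 (533 to 612) to 731 bp (659 to 875). In MV+ cells the medians were 462 (403 to 536) and 619 bp (389 to 792), with overlapping intervals. This rise was smaller than the rise in distance, and the share of peaks over both starts fell. Within 100 bp it was 96.6% in Beta-TC3, 94.4% in RAG and 88.4% in MV+ cells, and beyond 500 bp it was 48.5%, 37.3% and 28.1%.

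**Figure D3:**
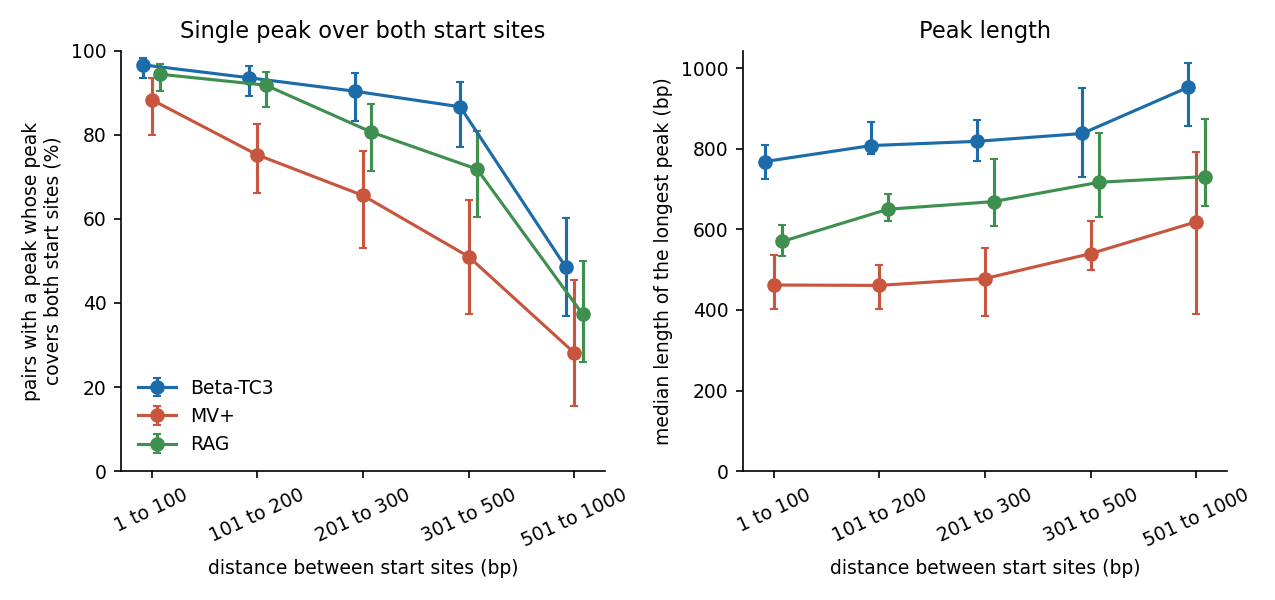
Left, share (%) of pairs with a peak whose single peak covers both start sites, and right, median length (bp) of the longest peak, by distance between the start sites (bp) in the 3 cell lines. Points carry 95% intervals (Wilson for shares, order statistics for medians). In Beta-TC3 cells the share falls from 96.6% to 48.5% while the median length rises from 768.5 to 952.5 bp.

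Presence itself did not follow distance in the same way. It was 81.5% in Beta-TC3 cells within 100 bp, 93.7% above 200 and up to 300 bp and 81.5% again beyond 500 bp. In MV+ cells it was 29.5% (24.5 to 34.9%) within 100 bp, 47.9% (41.4 to 54.5%) above 100 and up to 200 bp, 57.0% (46.4 to 66.9%) above 300 and up to 500 bp and 39.5% (29.6 to 50.4%) beyond that. MV+ peaks were thus called less often at the closest pairs than at those 100 to 500 bp apart, while the closest and the most distant pairs overlapped in their intervals. Among the 388 wider divergent pairs, counted at their start sites and not over the stretch between, 62.6% had a peak at either start in Beta-TC3, 24.5% in MV+ and 50.8% in RAG cells. The most distant pairs inside the rule, Pdzd7/Sfxn3 and Btf3l4/Txndc12 at 987 bp, had a peak in Beta-TC3 (75 and 80 fragments) and RAG cells (39 and 45). The longest peaks were found in Beta-TC3 cells at Atp6v1a/Naa50 (1880 bp), 5031425E22Rik/Mll5 (1744 bp) and Mrpl40/Hira (1691 bp), in RAG cells at Kdelc1/Bivm (1623 bp), 5031425E22Rik/Mll5 (1522 bp) and Lnx2/Polr1d (1426 bp), and in MV+ cells at Usp5/Cdca3 (1308 bp), Utp18/Mbtd1 (1124 bp) and Cbx5/Hnrnpa1 (1113 bp). Of these 8 pairs, Atp6v1a/Naa50, 5031425E22Rik/Mll5, Mrpl40/Hira and Kdelc1/Bivm had no MV+ peak. Cbx5 encodes heterochromatin protein 1 alpha, and Hnrnpa1 a splicing regulator.

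Pairs were richer in CpG than other promoters. Within 200 bp of the midpoint of a pair or of a single start site, the median ratio of observed to expected CpG was 0.839 (0.823 to 0.857) at pairs and 0.559 (0.546 to 0.570) at other coding genes. A ratio of at least 0.6 was met by 86.3% of pairs and 47.3% of the others. Within this group the gap in presence was smaller but did not vanish, at 19.4 percentage points in Beta-TC3 (16.7 to 21.7), 13.4 in MV+ (9.59 to 17.3) and 26.2 in RAG cells (23.0 to 29.1). Without that limit it was 46.7, 25.2 and 48.0 points.

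The gap was widest at intermediate CpG and narrowed towards the top. At a ratio of 0.4 to 0.6, 72.6% of pairs and 27.8% of other genes had a Beta-TC3 peak, and 59.7% and 15.2% a RAG peak. In MV+ cells it was widest at 0.6 to 0.8, where 50.0% and 27.1% had a peak. At 1.0 and above the shares were 88.3% (81.6 to 92.8%) and 79.6% (77.4 to 81.6%) in Beta-TC3 cells, with intervals that overlapped narrowly. In MV+ cells 37.5% (29.6 to 46.1%) and 35.2% (32.8 to 37.7%) could not be distinguished. Below 0.4, where few promoters had a peak, 17 of 46 pairs (37.0%) but 4.39% of 8010 other genes had a Beta-TC3 peak.

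**Figure D4:**
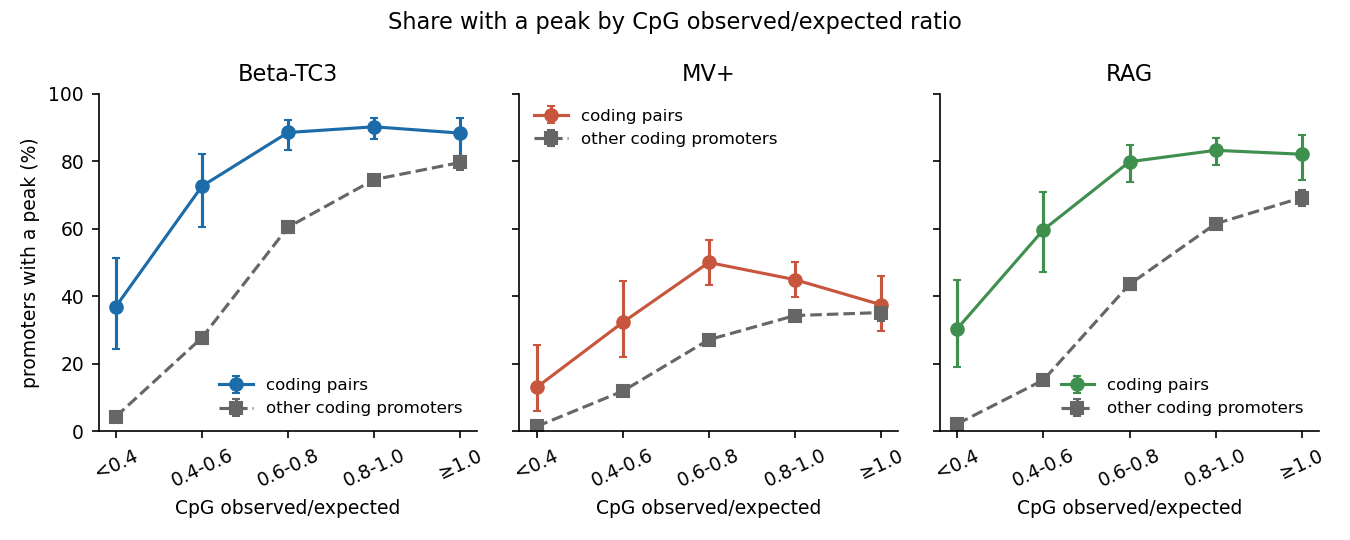
Share of promoters with a peak (%) by ratio of observed to expected CpG within 200 bp of the midpoint or start site, for coding pairs (solid) and other coding promoters (dashed) in each cell line, with 95% Wilson intervals. Pairs lie above the others in every class in Beta-TC3 and RAG cells, and the curves meet in MV+ cells at a ratio of 1.0 and above (37.5% and 35.2%).

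Motifs were searched as exact letters on both strands of the same window. For pairs over 400 bp apart this window does not reach the start sites. The ETS motif CCGGAAGT was present at 15.1% of pairs (12.8 to 17.7%) and 4.69% of other coding promoters, the NRF1 motif GCGCATGC at 7.73% and 3.31%, and the YY1 motif AAGATGGC at 9.76% and 4.15%. Among promoters with a CpG ratio of at least 0.6 these shares were 16.9% and 8.73%, 8.52% and 6.0%, and 10.4% and 6.23%. The SP motif GGGGCGGG was at 37.0% of pairs and 22.8% of others, but at 40.4% and 40.5% among the CpG-rich ones. The NF-Y motif CCAATCA was at 17.5% and 8.41%, the ZNF143 motif ACTACAA at 6.46% and 3.95%, the CREB motif TGACGTCA at 4.44% and 2.25% and the E-box CACGTG at 12.7% and 8.57%. Among the CpG-rich ones these came to 17.6% and 9.63%, 6.90% and 4.08%, 4.99% and 3.75%, and 13.5% and 12.1%, so that the excess of the E-box nearly went. Fewer pairs than others held the letters TATAAA (6.34% and 14.5%) or the AP-1 motif TGACTCA (3.04% and 5.15%). Most of that went too among the CpG-rich ones, with 4.70% and 5.80% for TATAAA and 2.94% and 2.80% for AP-1. A match is a run of letters and no evidence of binding.

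Pairs with the CCAAT letters had a peak more often in each line. After the printed stretches had been seen, 3 shorter cores were also counted. They were CCAAT for NF-Y, CGGAAG for ETS proteins and GGGCGG for SP proteins, and each lies within the longer motif of its factor. CCAAT was present at 377 pairs (47.8%) and at 41.7% of other coding promoters. Of the pairs with it, 54.4% (49.3 to 59.3%) had an MV+ peak, and of the 412 without it 31.1% (26.8 to 35.7%). The same comparison gave 89.9% (86.5 to 92.6%) and 80.3% (76.2 to 83.9%) in Beta-TC3, and 81.7% (77.5 to 85.3%) and 73.1% (68.6 to 77.1%) in RAG cells. For other coding genes with a CpG ratio of at least 0.6, the MV+ shares were 38.0% (36.4 to 39.6%) with and 27.9% (26.8 to 29.1%) without CCAAT, a gap of 10.1 points, against 26.1 points among pairs of the same CpG ratio. In Beta-TC3 cells this gap was 8.07 points at other genes and 9.20 at pairs, and in RAG cells 9.26 and 6.68. In those 2 lines it was thus of like size in both classes, and the RAG intervals of these pairs overlapped.

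The longer letters CCAATCA went the same way, with an MV+ peak at 58.7% of the 138 pairs that held them and at 38.7% of the rest. Among pairs with a peak in all lines, 61.9% (56.5 to 67.0%) held CCAAT, against 39.8% (33.9 to 45.9%) of those with a peak in Beta-TC3 and RAG alone and 36.0% (26.7 to 46.6%) of those with none. Elp4/Immp1l, with its 3 cores, belongs to the first group. The ETS core was at similar shares of the first group (50.2%) and the second (52.4%), but at 27.9% (19.5 to 38.2%) of the pairs with none. Of pairs with the ETS core, 88.4% had a peak in Beta-TC3, 81.4% in RAG and 42.5% in MV+ cells. Without it the shares were 81.5%, 73.1% and 41.9%. Among pairs with a CpG ratio of at least 0.6 the intervals for the ETS core overlapped in every line. Pairs with the SP core also had a peak more often, in each line. In Beta-TC3 cells 88.1% of pairs with it and 76.0% of those without it had a peak. In RAG cells these shares were 81.1% and 66.3%, and in MV+ cells 46.1% and 31.25%. Among pairs with a CpG ratio of at least 0.6 the intervals for the SP core overlapped in every line.

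Pairs with CCAAT were less GC-rich (median 61.1% and 63.6%) and further apart (median 168 and 110 bp) than those without. Within each GC class the MV+ share was higher with CCAAT, at 61.3% (50.3 to 71.2%) and 29.8% (21 to 40.2%) for 55 to 60% GC and at 65.5% (56.2 to 73.7%) and 30.9% (24.6 to 38.0%) for 65% and above. Below 55% GC the shares were 34.5% (25.3 to 44.9%) and 24.2% (15.2 to 36.2%), and at 60 to 65% they were 54.0% (44.3 to 63.4%) and 37.5% (28.1 to 47.9%), with overlapping intervals. Within 100 bp of distance the MV+ shares were 44.9% (35.4 to 54.8%) and 21.6% (16.4 to 28.0%). Among pairs over 100 and up to 200 bp apart they were 54.8% (46.1 to 63.2%) and 38.7% (29.4 to 48.9%), with overlapping intervals, and beyond 200 bp 60.1% (52.2 to 67.5%) and 40.0% (31.8 to 48.8%). The gap between lines in this pattern was not tested or recomputed at equal numbers of peaks. These classes were formed after the pattern had been seen, and the part of GC content and distance in it was not tested.

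**Figure D5:**
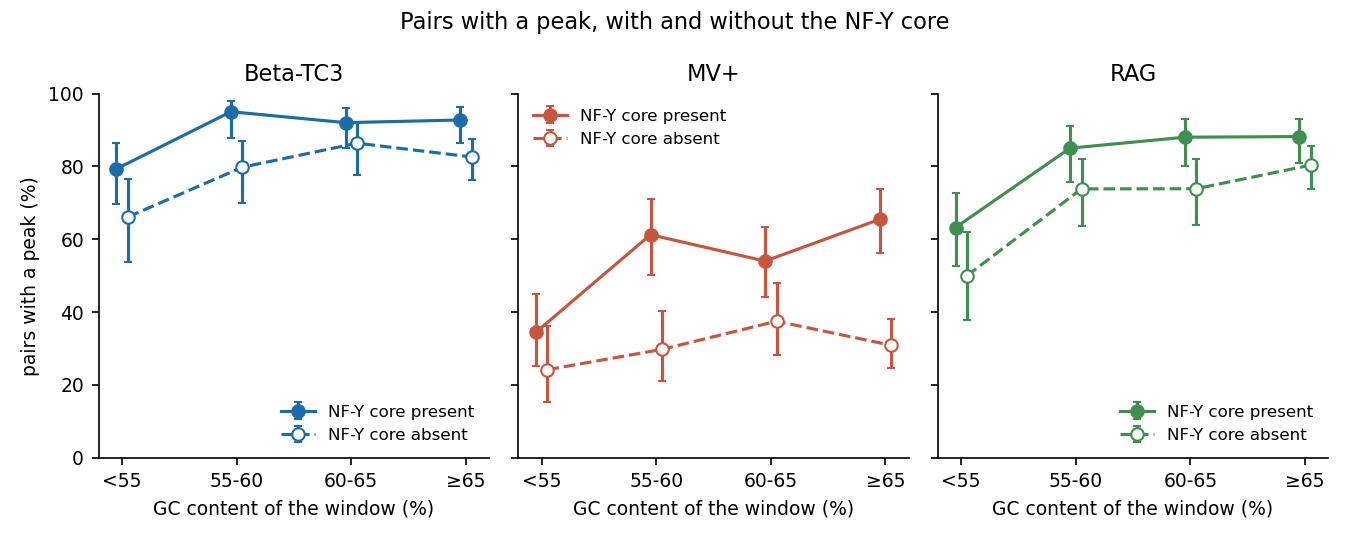
Share of pairs with a peak (%) by GC content of the window (%), for pairs with the CCAAT letters of the NF-Y core (filled, solid) and without (open, dashed) in each cell line, with 95% Wilson intervals. In MV+ cells the lines lie furthest apart at 65% GC and above, at 65.5% and 30.9%, and in Beta-TC3 cells the intervals overlap in 3 of the 4 classes.

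The NRF1 letters were found at pairs that nearly always had a peak in Beta-TC3 and RAG cells. Of the 61 pairs with GCGCATGC, 96.7% had a peak in Beta-TC3 and 96.7% in RAG cells, and 47.5% in MV+ cells. Of the pairs without it, 83.9%, 75.5% and 41.8% had one, and the MV+ intervals overlapped (35.5 to 59.8% with and 38.2 to 45.4% without). The 50 pairs with TATAAA had a peak in 74.0%, 56.0% and 18% in Beta-TC3, RAG and MV+ cells, and those without it in 85.7%, 78.6% and 43.8%. Among pairs with a CpG ratio of at least 0.6, where 32 held the letters, the shares were 81.2% and 89.7% in Beta-TC3 and 75.0% and 82.3% in RAG cells, with overlapping intervals, and 18.8% (8.89 to 35.3%) and 46.4% (42.6 to 50.2%) in MV+ cells. The 50 included 8 of the 323 pairs with a peak in all lines but 11 of the 86 with none. Coding genes in no pair with a CpG ratio of at least 0.6 went the same way for both motifs. With and without GCGCATGC, 81.9% and 69.1% of them had a peak in Beta-TC3, 71.6% and 54.7% in RAG and 39.3% and 31.2% in MV+ cells. With and without TATAAA the shares were 55.2% and 70.8%, 43.1% and 56.5%, and 20.9% and 32.3%.

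By function, pairs were grouped by gene symbol, counting a pair where at least 1 gene belonged. The shares over all pairs, 84.9% in Beta-TC3, 42.2% in MV+ and 77.2% in RAG cells, are the background for each list, and no list was tested against it. Of 27 pairs of DNA repair and replication genes, 25 had a peak in Beta-TC3 (92.6%), 15 in MV+ (55.6%) and 22 in RAG cells (81.5%). For the 72 genes of the same list in no pair the shares were 80.6%, 34.7% and 63.9%. Among the strongest in Beta-TC3 cells were Rpa3/Gm16039 (465), Mcm4/Prkdc (257) and Xrcc3/Zfyve21 (193), all with a peak in every line. Xrcc3 acts in homologous recombination, and its pair gave 90.0 fragments in MV+ and 92 in RAG cells. Tsc2/Nthl1 and Neil1/Gm16493 had none.

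Pairs with mitochondrial genes had shares near those of all pairs in Beta-TC3 cells. Among 23 pairs with a respiratory chain gene, 21 had a peak in Beta-TC3 (91.3%), 10 in MV+ (43.5%) and 18 in RAG cells (78.3%), with Ndufa4/Phf14 (346 fragments in Beta-TC3), Ndufa5/Asb15 (253) and Vmac/Ndufa11 (145) among the strongest, and Rps28/Ndufa7 had none. The 16 pairs with a gene of the mitochondrial ribosome gave 13, 5 and 13 (81.2%, 31.2% and 81.2%), led by Ncapd2/Mrpl51 (169), Mrpl41/Pnpla7 (166), Mrpl40/Hira (147) and Mrpl32/Psma2 (141), while Eme2/Mrps34 and Mrps21/C920021L13Rik had no peak. All 7 pairs with an aminoacyl-tRNA synthetase had a peak in Beta-TC3 and RAG and 3 of them in MV+ cells. Lyrm4/Fars2 (147), Orc3/Rars2 (102) and Kars/Terf2ip (78) were among the strongest in Beta-TC3. Of the 28 synthetase genes in no pair, 96.4%, 35.7% and 82.1% had a peak in Beta-TC3, MV+ and RAG cells. The shares were 76.0%, 28.0% and 61.3% for the 75 unpaired respiratory chain genes. They were 77.0%, 26.2% and 50.8% for the 61 unpaired genes of the mitochondrial ribosome.

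Of the 8 pairs with a gene of the cytosolic ribosome, 4 had a peak in Beta-TC3, 3 in RAG and none in MV+ cells, and pileup was low at those that did: Med22/Rpl7a 56, Iqcg/Rpl35a 47, Rpl9/Lias 43 and Rps27/Rab13 42 in Beta-TC3 cells. Rnf151/Rps2, Rps28/Ndufa7 and Zwilch/Rpl4 had no peak in any line. Of the 67 ribosomal protein genes in no pair, 50 had a peak in Beta-TC3, 11 in MV+ and 29 in RAG cells. With so few pairs the classes cannot be set apart.

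Of the 14 pairs with a replication-dependent histone gene, Beta-TC3 cells had a peak at 12 (85.7%), RAG cells at 5 (35.7%) and MV+ cells at 2 (14.3%). The 40 histone genes of the list in no pair also had few MV+ peaks, with 75.0% in Beta-TC3, 47.5% in RAG and 2.50% in MV+ cells. The strongest in Beta-TC3 were Hist1h2ac/Hist1h2bc (123), Hist1h2ae/Hist1h2bg (105), Hist1h2ag/Hist1h2bj (102) and Hist1h2bh/Hist1h3f (77), none of which had an MV+ peak. Hist1h2bf/Hist1h2ad and Hist1h2ba/Hist1h2aa had none, the latter being the pair of testis-specific histones. Histone genes have near-identical copies, so the assignment of reads to single copies is uncertain.

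Of 15 pairs with a gene of the RNA polymerases or the spliceosome 14, 6 and 11 had a peak in Beta-TC3, MV+ and RAG cells (93.3%, 40.0% and 73.3%), close to the shares of all pairs, and Polr3g/Mblac2 (217, 161 and 219 fragments) was strongest in Beta-TC3 cells. The 4 proteasome pairs gave 4, 2 and 3, led by Mrpl32/Psma2. Zinc finger genes formed 18 pairs, with 16, 9 and 16 (88.9%, 50.0% and 88.9%), led by Zfp277/Dock4 (313 in Beta-TC3), and Zfp558/Mbd3l1 was without a peak. Solute carriers formed 15, with 15, 7 and 12 (100%, 46.7% and 80.0%), led by Dbf4/Slc25a40 (225). Of the 46 polymerase and spliceosome genes in no pair, 84.8%, 15.2% and 52.2% had a peak in Beta-TC3, MV+ and RAG cells. The shares were 62.0%, 33.0% and 44.1% for the 345 unpaired zinc finger genes and 39.3%, 14.3% and 26.5% for the 328 unpaired solute carriers. The symbol search for collagens found Col4a4/Col4a3 and Polk/Col4a3bp, whose gene Col4a3bp encodes a ceramide transporter and no collagen.

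Of the homeobox and other developmental factors listed, 4 were in a pair and 160 in none, where 1562 of all 21418 coding genes were in a pair. The 4 pairs were 5930416I19Rik/Foxm1 (133 in Beta-TC3), Foxa3/Sympk (70), AA415398/Foxj3 (45) and Gm17649/Hoxc13, which had no peak. None of the 1433 olfactory and vomeronasal receptor genes and none of the 34 protocadherins was in a pair. Without the receptor genes the share of other coding genes rose, and the gap in Beta-TC3 cells was 43.7 points.

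The 86 pairs without a peak in any line were of mixed kinds. Their median CpG ratio was 0.66, and 45 of them had a ratio of at least 0.6. Chromosome 11 held 16 of them among its 67 pairs. A Beta-TC3 peak lay within 1000 bp of the window for 4 of them, a RAG peak for 3 and an MV+ peak for 1, and the median distance to the nearest Beta-TC3 peak was 22488 bp. Genes of restricted expression were among them, such as the testis genes Tssk3 and Capza3, the taste receptor Tas1r1, the nephrin gene Nphs1 and Uox, which encodes urate oxidase. These examples, and housekeeping ones such as Eif3i, Actg1, Sqstm1 and Arcn1, were picked after their values had been seen. Where at least 1 gene had only a model or clone name, 35 of 209 pairs (16.7%) had no peak, against 51 of 580 pairs (8.79%) of genes that both had a given name.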

How the data were processed

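ATAC-seq libraries of 3 cell lines (50000 nuclei, 11 PCR cycles, 75 bp paired reads) were trimmed with Trim Galore 0.4.1, aligned to mm9 with Bowtie2 2.2.6 and handled with SAMtools 1.6 and bedtools by the authors, who pooled both replicates of a line for a single MACS2 2.1.1 call (q-value 0.05), without a control library or a Tn5 shift. Local background came from windows of 6250 bp, and whole fragments were counted, not cut sites. The deposited pileup is a signal, the unscaled number of fragments at the summit. The deposited fold enrichment is a ratio to the local background. The authors' −log10 q-values and −log10 p-values were taken as given, and the deposited peak length is in bp. A second deposited file per line repeats the same call and was not used.

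Gene starts came from GENCODE M1 on NCBIM37, and all peaks lay inside its chromosomes. Peaks were overlapped in Python 3.11.15 with pandas 2.3.3 and SciPy 1.17.1, after the functions had been checked on simulated data. Shares carry 95% Wilson intervals and medians order-statistic intervals, both for counting error only. No test was run. Named pairs were 23 well-known ones, the 5 highest in pileup and the 3 longest per line, up to 5 of each pattern by fold enrichment, and up to 4 per function list with the pairs lacking a peak. Some pairs that these rules name are not reported here. Pairs, lists and motifs were chosen with earlier results of these data known. All columns of values belonged to a sample's line. Alternatives are given in the closing section.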

Additional observations from a re-analysis of the deposited data

How the results depend on the processing

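No paired analysis was possible because both replicates of each line were pooled in 1 call, and for the same reason no replicate could be left out. Depth limits the calls from below, since no peak with fewer than 25 fragments in Beta-TC3 and RAG or 30 in MV+ cells was listed.

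Of 161 recomputed values, 141 stayed within the 95% interval of the reported one and 20 moved outside it. Among the 141 are the MV+ values with 9821 peaks, which could not change because that is the whole MV+ call. A reversal was defined only for the differences and the pileup ratios, and none of these reversed. The difference between pairs and other coding genes was above 0 in all 45 recomputations, from 13.4 to 50.5 percentage points, and the pileup ratio above 1 in all 27, from 1.02 to 1.15. In MV+ cells the interval of that ratio included 1. With 9821 peaks in each line, which by construction leaves fewer peaks in Beta-TC3 and RAG cells, the share of pairs with a peak was 57.8% in Beta-TC3 and 68.4% in RAG, the difference from other genes 34.5 and 43.5 points, the share in all lines 36.6%, the Beta-TC3 pileup ratio 1.07, the median length 879 and 669.5 bp, and the share of peaks over both starts 92.8% and 87.0%. With the summit inside the window, the share was 79.1% in Beta-TC3 and 70.7% in RAG, the share in all lines 37.1% and the Beta-TC3 difference 49.7 points. With at most 500 bp between start sites (708 pairs), peaks covered both starts at 93.4% in Beta-TC3 and 88.4% in RAG cells. At a CpG ratio of at least 0.6 (681 pairs, 9389 others) the difference was 19.4, 13.4 and 26.2 points in Beta-TC3, MV+ and RAG cells, and the cause was not tested. Among alternatives chosen after seeing the data, leaving out olfactory and vomeronasal genes gave a Beta-TC3 difference of 43.7 points, and merging overlapping windows or leaving out pairs with a model or clone name moved no value outside its interval. The q-value cut of 0.001, the 116 added pairs with overlapping start sites, chromosome 6, the histone pairs, flanks of 0 and 500 bp and equal windows did not either.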
